A study of Saccharomyces cerevisiae with 4 samples.

Results

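The measurements concern transfer RNA (tRNA) genes at which Pho4 or Cbf1 libraries of the budding yeast Saccharomyces cerevisiae gave a ChIP-nexus peak. A peak was taken as a member when its interval overlapped a nuclear tRNA gene of the R64 (sacCer3) annotation by at least 1 bp, so no enrichment value entered the choice. This gave 439 peaks of 6681 nuclear peaks in 4 lists. There were 131 of 2005 in Pho4 replicate 1, 82 of 2190 in Pho4 replicate 2, 69 of 920 in Cbf1 replicate 1 and 157 of 1566 in Cbf1 replicate 2.

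The Pho4 libraries came from W303 strain Z1441 (PHO4::9myc::TRP1) and the Cbf1 libraries from W303 strain Z1497 (CBF1::9myc::TRP1), with 2 libraries per factor. Both factors therefore carried 9 Myc copies and were precipitated with the same anti-Myc antibody, ab9E10. The labels attach one protocol to all 4 libraries, with growth in YPD at 25 °C, a shift to phosphate-free medium for 2 h and crosslinking with formaldehyde. In ChIP-nexus, precipitated chromatin is digested by an exonuclease that stops at the crosslinked protein. No input, untagged or phosphate-rich library was used here, and the labels do not say whether replicates were separate cultures, so p-values measure only the spread between these libraries.

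A tRNA gene is transcribed by RNA polymerase III from a promoter that lies inside the gene. The factor TFIIIC binds the internal A and B boxes and places TFIIIB upstream of the start, and TFIIIB recruits the polymerase. Both factors here act on RNA polymerase II genes and bind CACGTG through a basic helix-loop-helix domain, Pho4 at phosphate-starvation genes and Cbf1 at sulfur-metabolism genes and centromeres. Genes for one amino acid form an isotype, and many of them are exact copies of each other.

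The R64 annotation held 275 nuclear tRNA genes of 20 isotypes, with 70 distinct sequences, a median length of 73 bp and an intron in 60. As examples of genes that these peaks overlap, 6 genes are printed from R64, the reference strain S288C, 5′ to 3′ on the gene strand. Capitals mark the best match to a core of the B box, GTTCGANTC, with at most 1 mismatch. TGA1 and YNCD0004W, both alanine genes, and SUP17, a serine gene, had peaks in all 4 lists. YNCI0011W, a glutamate gene, had the highest fold of the tRNA genes called with Cbf1 alone. SUP54 and SUP56, both leucine genes, are printed because they are nearly the same sequence and had different calls. SUP53, an exact copy of SUP54, was called in all 4 lists as SUP56 was. Some of these peaks cover only part of the printed gene. Both Pho4 peaks at SUP54 began inside it, at 423165 and 423170. At SUP56 the Pho4 replicate 2 peak ended at 181155, and at YNCI0011W the Cbf1 replicate 2 peak ended at 370419.
TGA1 chrI:166267-166339, + strand: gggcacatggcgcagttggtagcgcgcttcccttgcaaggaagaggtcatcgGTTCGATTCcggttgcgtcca
YNCD0004W chrIV:410379-410451, + strand: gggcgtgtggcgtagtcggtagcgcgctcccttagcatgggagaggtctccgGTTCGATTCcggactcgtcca
SUP17 chrIX:248850-248931, + strand: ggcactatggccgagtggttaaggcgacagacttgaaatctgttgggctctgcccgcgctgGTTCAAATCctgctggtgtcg
YNCI0011W chrIX:370417-370488, + strand: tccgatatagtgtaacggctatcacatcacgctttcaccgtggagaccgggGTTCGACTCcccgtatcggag
SUP54 chrVII:423092-423205, + strand: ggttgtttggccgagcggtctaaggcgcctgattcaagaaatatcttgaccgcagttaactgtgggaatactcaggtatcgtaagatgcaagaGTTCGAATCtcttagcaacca
SUP56 chrI:181141-181254, + strand: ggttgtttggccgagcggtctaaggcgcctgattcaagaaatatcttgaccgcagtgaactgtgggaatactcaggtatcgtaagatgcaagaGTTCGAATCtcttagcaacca
The core matched exactly in 111 of 275 tRNA genes (40.4%), with 1 mismatch in 146 and with 2 or more in 18. Of 68718 windows of 73 bp without a tRNA gene, 65 held an exact match on either strand (0.0946%). CACGTG, the site of both factors, occurred inside 0 of the 275 tRNA genes, against 0.533% of the same windows.

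The lists ended at different places. With chromosome names in text order, they stopped on chromosome XIV at 68625 for Pho4 replicate 1, on XVI at 937934 for Pho4 replicate 2, on VII at 856779 for Cbf1 replicate 1 and on XIV at 6704 for Cbf1 replicate 2. Results below cover the sequence that all 4 reach, made up of chromosomes I to VI, IX and the part of VII before 856779, with 126 tRNA genes. The lists hold no read totals, so depth was described by the summit heights that fold and p imply. At tRNA genes the median summit held 74 and 35 reads in Pho4 replicates 1 and 2, and 68.5 and 57 reads in Cbf1 replicates 1 and 2. The local background was 19.2 and 9.11 reads with Pho4 and 25.5 and 15.9 reads with Cbf1, so Pho4 replicate 2 was the shallowest of the 4. The part of depth in the calls below was not tested.

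In 3 of the 4 libraries, over 50% of tRNA genes had a peak. Peaks covered 81 of 126 tRNA genes in Pho4 replicate 1 (64.3%, 95% Wilson interval 55.6% to 72.1%) and 39 in Pho4 replicate 2 (31.0%, 23.5% to 39.5%). They covered 70 in Cbf1 replicate 1 (55.6%, 46.8% to 63.9%) and 91 in Cbf1 replicate 2 (72.2%, 63.8% to 79.3%). Pho4 replicate 2 was the lowest, and the ranges of the factors overlapped. The intervals cover counting error alone.

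The same lists covered far fewer protein-coding genes, although a gene body is longer than a tRNA gene. Protein-coding genes had a peak in 21.5% and 18.4% of cases in Pho4 replicates 1 and 2, and in 24.6% and 23.2% in Cbf1 replicates 1 and 2. Windows of 73 bp without a tRNA gene had one in 9.14% and 7.65% for Pho4 and in 10.2% and 8.29% for Cbf1. The tRNA share exceeded the protein-coding share by 42.8 and 12.6 percentage points with Pho4 and by 31.0 and 49 points with Cbf1. The mean difference was 33.8 points (SD 16, n = 4 libraries), positive in 4 of 4, with a two-sided exact sign-flip p of 0.13, the smallest that 4 libraries allow.

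Between the factors, the share of tRNA genes with a peak averaged 47.6% ± 23.6 for Pho4 and 63.9% ± 11.8 for Cbf1 (SD, n = 2 each). The difference of -16.3 points was smaller than the SD of the Pho4 libraries (two-sided exact permutation p = 0.667 over 6 assignments). It moved with the Pho4 libraries: the difference was 0.397 points without Pho4 replicate 2 and -32.9 points without Pho4 replicate 1. With 2 libraries against 2, no two-sided exact p can fall below 0.33.

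**Figure D1:**
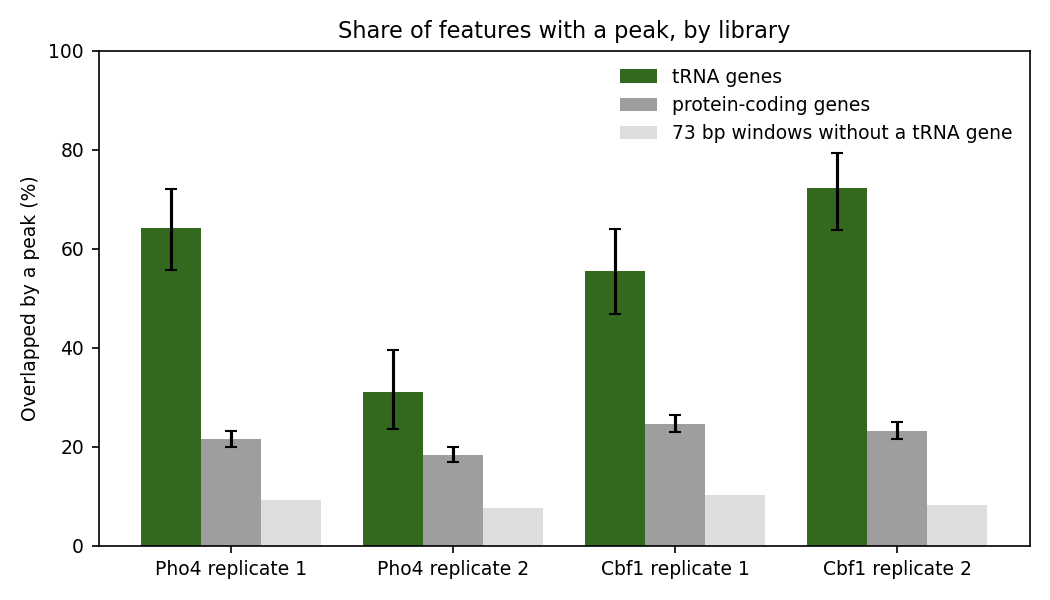
Percent of tRNA genes, of protein-coding genes and of 73 bp windows without a tRNA gene that a peak overlapped, for each library, with 95% Wilson intervals on both gene shares. In each library the tRNA bar is the highest of the 3, and it is lowest in Pho4 replicate 2, at 31.0%.

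The tRNA genes called in replicates of a factor were nested. All 39 genes of Pho4 replicate 2 were among the 81 of Pho4 replicate 1, and all 70 genes of Cbf1 replicate 1 were among the 91 of Cbf1 replicate 2. Thus 39 genes (31.0%) had a peak in both Pho4 lists, against 15.5% of protein-coding genes and 6.27% of windows. For Cbf1, 70 genes (55.6%) had a peak in both lists, against 18.1% of protein-coding genes and 6.27% of windows.

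Most called tRNA genes had a peak with both factors. Of the 99 genes with a peak in any list, 26 (26.3%) had peaks with one factor alone, 8 with Pho4 and 18 with Cbf1. Among protein-coding genes with a peak, 63.5% had peaks with one factor alone, which came to 9.88% of all protein-coding genes for Pho4 and 15.3% for Cbf1. A peak in all 4 lists was seen at 36 tRNA genes (28.6%), against 7.53% of protein-coding genes and 2.42% of windows, and without Pho4 replicate 2 the other lists shared 61. No list had a peak at 27 tRNA genes (21.4%), against 60.4% of protein-coding genes. Both Pho4 lists and neither Cbf1 list called 1 gene (0.794%), against 5.54% of protein-coding genes. Both Cbf1 lists and neither Pho4 list called 9 (7.14%), close to the 7.57% of protein-coding genes. The commonest pattern short of all 4 was a peak in Pho4 replicate 1 and both Cbf1 lists, at 25 genes.

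By the overlap of their gene sets, libraries of one factor were little closer than libraries of different factors, but set size limited this measure. The Jaccard index of the gene sets, the shared genes over the genes in either list, was 0.481 between the Pho4 libraries and 0.769 between the Cbf1 libraries, with a mean of 0.625. Across factors, the 4 pairs lay between 0.413 and 0.737 and averaged 0.580. Because the smaller set of each factor was nested in the larger, both same-factor values were the highest that their set sizes allow. The index therefore cannot show how much closer libraries of one factor are. The contrast was 0.045 (one-sided exact permutation p = 0.333 over the 3 pairings, the smallest possible), and the ranges overlapped. Leaving out 1 library turned its sign in some cases: it was -0.0937 without Cbf1 replicate 1, -0.104 without Cbf1 replicate 2 and 0.316 without Pho4 replicate 1. Protein-coding genes, counted without the peaks at tRNA genes, separated the factors more widely, with means of 0.614 within factors and 0.311 between them. The gap between these 2 contrasts was not tested.

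Beyond the shared sequence, 98 more tRNA genes were reached by both Pho4 lists and by Cbf1 replicate 2. Peaks covered 51 of them in Pho4 replicate 1 (52.0%), 24 in Pho4 replicate 2 (24.5%) and 67 in Cbf1 replicate 2 (68.4%). Protein-coding genes there had a peak in 22.6%, 17.7% and 22.4% of cases in the same libraries, so the tRNA share of Pho4 replicate 2 lay near that background. The order of the libraries was the same as in the shared sequence. All 3 lists had a peak at 24 of the 98, against 7.85% of the protein-coding genes there. A further 51 tRNA genes were reached by Pho4 replicate 2 alone, which had a peak at 19 (37.3%), against 17.4% of the protein-coding genes it alone reaches.

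Most called tRNA genes lay wholly inside the peak, for 66 of 81 and 24 of 39 genes with Pho4 and for 57 of 70 and 75 of 91 with Cbf1. Less than 50% of the gene was covered at 3 and 10 genes with Pho4 and at 4 and 2 with Cbf1. The smallest overlap with a tRNA gene was 11 and 10 bp in Pho4 replicates 1 and 2 and 4 and 3 bp in Cbf1 replicates 1 and 2. The nearest peak that missed a tRNA gene was 205 and 6 bp away with Pho4 and 9 and 304 bp away with Cbf1.

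The authors' fold, the summit height over the local background, was moderate at tRNA genes. It ran from 2.02 to 17.9 with a median of 3.56 over the genes of Pho4 replicate 1, and from 2.35 to 11.6 with a median of 3.81 in Pho4 replicate 2. It ran from 1.72 to 10.5 with a median of 2.69 in Cbf1 replicate 1, and from 2.04 to 23.5 with a median of 3.55 in Cbf1 replicate 2. Fold levels differed between lists, with medians over other peaks of 3.03 and 3.38 for Pho4 and 2.15 and 2.68 for Cbf1, so a gene is compared between lists by the percentile of its fold within each. At the 36 genes shared by all lists the medians were 4.80 and 3.75 for Pho4 and 3.01 and 3.93 for Cbf1.

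Peaks at tRNA genes stood a little above the other peaks of their list. The median log2 fold exceeded that of the other peaks by 0.24 and 0.17 in Pho4 replicates 1 and 2, and by 0.33 and 0.41 in Cbf1 replicates 1 and 2. The mean was 0.29 (SD 0.10, n = 4), positive in 4 of 4 libraries, with an exact sign-flip p of 0.13, the smallest possible. Among the peaks in the upper 50% by −log10 q the mean was -0.14, so the direction did not hold among the strongest peaks. Each list was also divided into 5 equal bins by fold. In the lowest bin, tRNA genes took 1.81% and 2.12% of Pho4 peaks and 0.543% and 0.585% of Cbf1 peaks. In bin 4 they took 10.9% and 4.79% of Pho4 peaks and 15.8% and 26.5% of Cbf1 peaks. In the highest bin they took 6.79% and 4.79% of Pho4 peaks and 8.70% and 5.29% of Cbf1 peaks.

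Between the factors, the median fold percentile of tRNA peaks within the list was 59.5 and 56.6 with Pho4 and 68.8 and 64.9 with Cbf1. Both Cbf1 values lay above both Pho4 values, at 58.0 ± 1.99 for Pho4 and 66.8 ± 2.69 for Cbf1 (SD, n = 2 each), a difference of -8.80 points (exact permutation p = 0.333). Within the upper 50% of the lists the difference was 2.24 points.

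**Figure D2:**
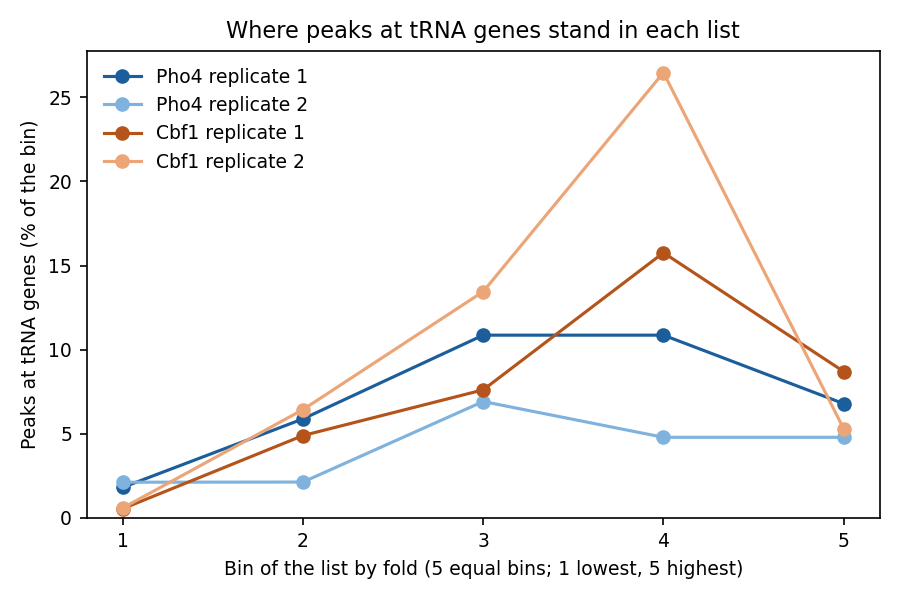
Percent of peaks that lay at a tRNA gene in each of 5 equal bins of a list, ordered by the authors' fold from lowest to highest, with one line per library. The lowest bin holds at most 2.12%, and the lines reach 26.5% in bin 4 of Cbf1 replicate 2, where the highest bin holds 5.29%.

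Peaks at tRNA genes were also wider than the others. Their median width was 336.5 and 330 bp with Pho4, against 283 and 271 bp for other peaks. It was 374 and 356 bp with Cbf1, against 293 and 297 bp for other peaks. The mean difference was 63.1 bp (SD 12.2, n = 4; exact sign-flip p = 0.13), and among the upper 50% of each list it was -68.1 bp. A wide peak overlaps a gene more easily, so the membership rule itself favours wide peaks. With the summit required within 100 bp of the gene instead, the mean difference was 33.1 bp (exact sign-flip p = 0.25).

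Fold at shared tRNA genes was more alike within a factor than between factors. Over the 39 genes shared by the Pho4 libraries, log2 fold correlated with a Pearson r of 0.873 and a Spearman rho of 0.765. Over the 70 genes shared by the Cbf1 libraries, r was 0.867 and rho 0.787. For the 4 pairs of different factors, r ran from 0.363 to 0.451 and rho from 0.256 to 0.443, over 36 to 73 genes. Where both summits lay within 50 bp of the gene, r was 0.764 over 12 genes between the Pho4 libraries and 0.855 over 30 between the Cbf1 libraries, and 0.459 to 0.702 between factors. These describe genes, which are not independent replicates and share the library's depth and background.

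**Figure D3:**
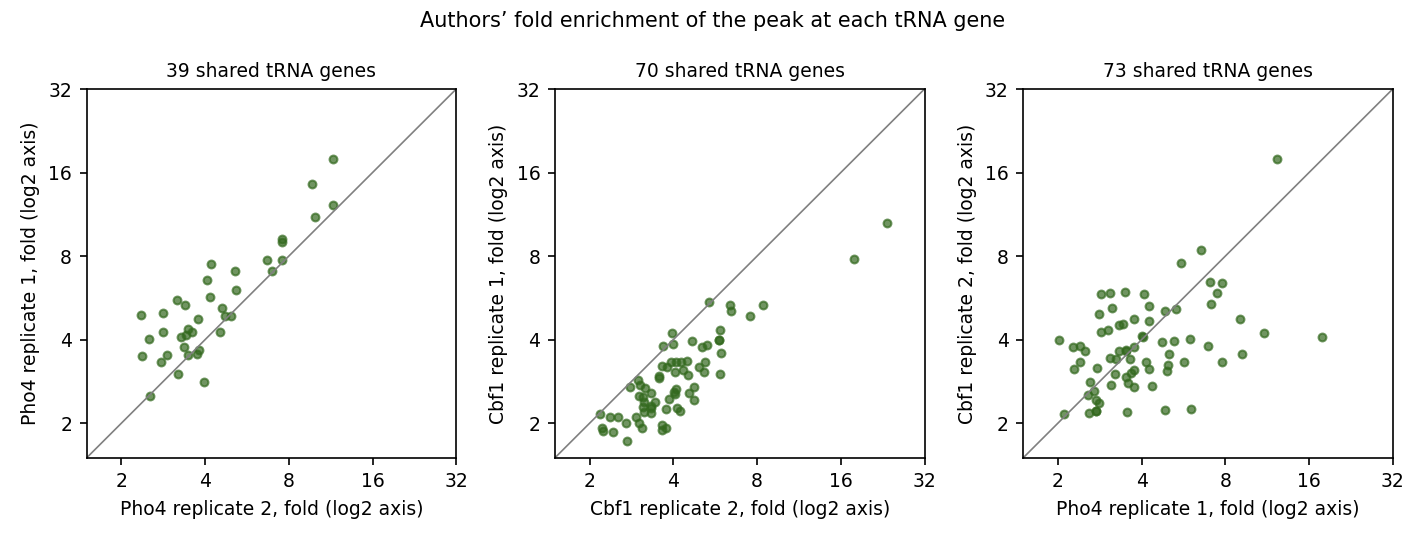
The authors' fold at each tRNA gene with a peak in both libraries, on log2 axes, for the Pho4 pair (39 genes), the Cbf1 pair (70 genes) and Pho4 replicate 1 with Cbf1 replicate 2 (73 genes); the grey line marks equal fold. Points of the same-factor pairs lie along a band, and those of the pair of different factors scatter widely.

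The summit took 3 places relative to a tRNA gene: just upstream of it, near its middle, and past its end. Measured from the 5′ end along the gene strand, the median summit lay at 40 bp in Pho4 replicate 1, 147 bp in Pho4 replicate 2, 43.5 bp in Cbf1 replicate 1 and 34 bp in Cbf1 replicate 2. The summit was inside the gene for 33 of 81 genes (40.7%) and 6 of 39 genes (15.4%) with Pho4. It was inside for 30 of 70 (42.9%) and 39 of 91 (42.9%) with Cbf1. Pho4 replicate 2 again stood apart, with most of its summits past the gene.

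In 3 of the 4 lists, summits were most frequent around the middle of the gene. The bin from 0 to 24 bp held 5 and 2 genes with Pho4 and 9 and 10 with Cbf1. The bin from 25 to 49 bp held 24 and 3 genes with Pho4 and 18 and 25 with Cbf1, and the bin from 50 to 74 bp 4 and 1 with Pho4 and 3 and 4 with Cbf1, while the bin from 75 to 99 bp held 0 and 0 with Pho4 and 1 and 0 with Cbf1. Pho4 replicate 2 was the exception, with 6 summits inside the gene in all.

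Flanking summits were also seen with both factors, counted here per library and not gene by gene. Between 1 and 100 bp upstream, where TFIIIB is known to sit, lay the summits of 23 and 9 genes with Pho4 and of 8 and 30 genes with Cbf1. Between 51 and 150 bp past the gene lay 12 and 15 with Pho4 and 21 and 14 with Cbf1. Gene by gene, summits often differed in place. They lay within 25 bp of each other at 43.6% of the genes shared by the Pho4 libraries and at 42.9% for the Cbf1 libraries. For pairs of different factors it was 13.2% to 43.8%. The share inside the gene averaged 28.1% ± 17.9 for Pho4 and 42.9% ± 0 for Cbf1 (SD, n = 2 each), a difference of -14.8 points (exact permutation p = 0.333, the smallest possible). It was -2.12 points without Pho4 replicate 2 and -27.5 points without Pho4 replicate 1. The median offset differed by 54.75 bp (exact permutation p = 0.667), by 1.25 bp without Pho4 replicate 2, by 108.25 bp without Pho4 replicate 1, and by -3.75 bp when genes with an identical copy were left out.

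**Figure D4:**
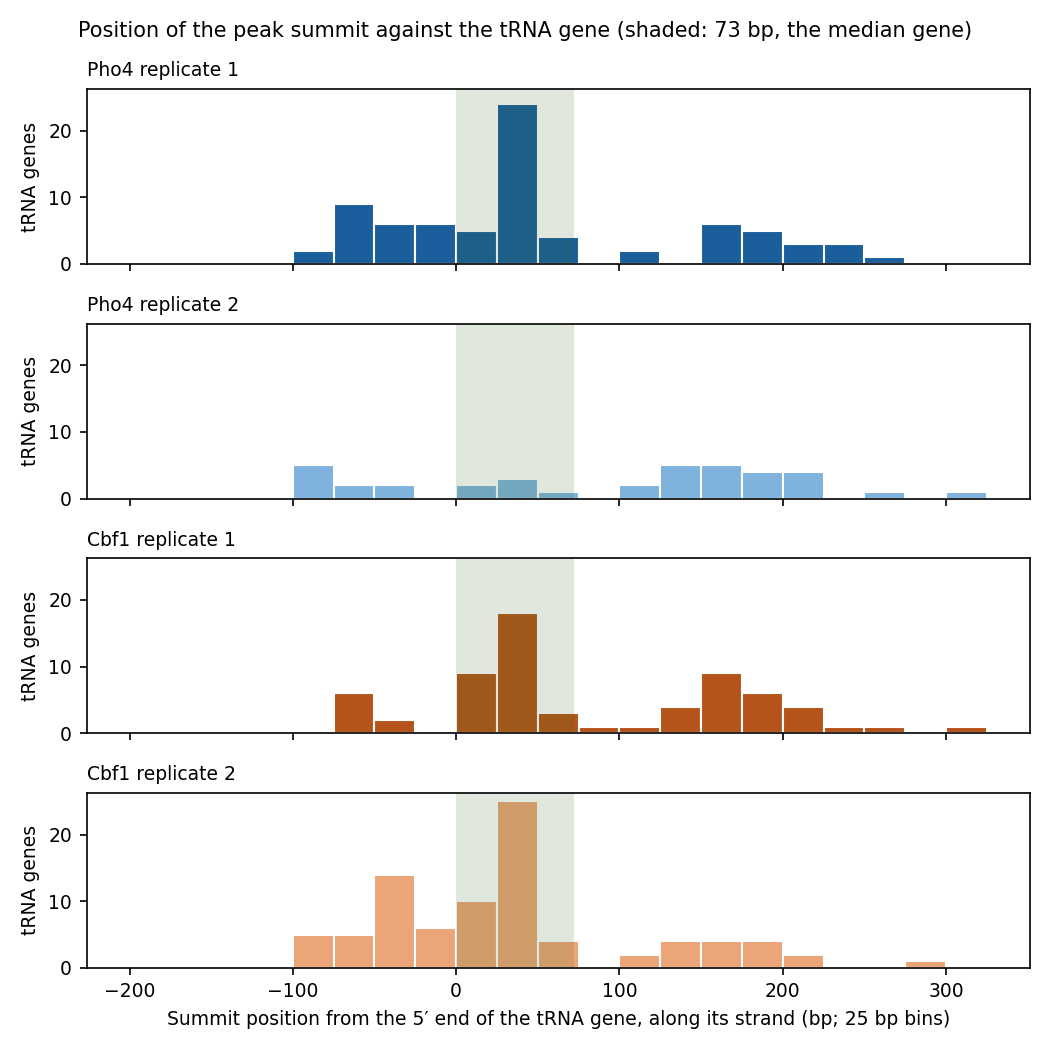
Number of tRNA genes by the position of the peak summit from the gene's 5′ end along its strand, in 25 bp bins, for each library; shading marks 73 bp, the median gene length, and 5, 2, 4 and 5 genes from top to bottom lie outside the plotted span of -200 to 324 bp. Summits gather upstream, at 25 to 49 bp and past 100 bp, and few lie between 75 and 99 bp.

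Of the 126 tRNA genes, 8 (6.35%) had a summit within 50 bp of the gene in all 4 lists. Both Pho4 lists had such a summit at 12 (9.52%), and both Cbf1 lists at 30 (23.8%). Pho4 replicate 2 had 13 such genes in total, which limits the counts of 8 and 12. Pho4 replicate 1 and both Cbf1 lists shared 19 (15.1%). TGA1, SUP56, IMT4 and the genes YNCD0023C (phenylalanine) and YNCE0028C (arginine) were among the 8. Median folds were lower in each list where the summit was near, a difference that was not tested. Within 50 bp the median fold was 3.23 and 3.81 with Pho4 and 2.60 and 3.41 with Cbf1. With the summit farther away it was 4.70 and 3.86 with Pho4 and 2.86 and 3.61 with Cbf1. The highest fold was 11.1 and 6.95 with Pho4 and 5.46 and 8.41 with Cbf1 for near summits, and 17.9 and 11.6 with Pho4 and 10.5 and 23.5 with Cbf1 for those farther away.

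CACGTG was nearly absent from summits at tRNA genes. A site centred within 50 bp of the summit was found in 1 of 80 tRNA peaks in Pho4 replicate 1 (1.25%) and 1 of 39 in Pho4 replicate 2 (2.56%). There was one in 0 of 69 in Cbf1 replicate 1, which allows a share of up to 4.35%, and in 0 of 89 in Cbf1 replicate 2, which allows up to 3.37%. Other summits had one in 21.6% and 23.3% of cases with Pho4 and in 17.3% and 24.0% with Cbf1. The mean difference was -20.6 points (SD 2.73, n = 4), negative in 4 of 4 libraries (exact sign-flip p = 0.13, the smallest possible). In the shared sequence, 0 of 126 tRNA genes had a CACGTG centred within 200 bp of the centre of the gene. A summit at or close to these genes therefore could not have a site within 50 bp. The difference is thus in part fixed by the genome sequence, and the test cannot separate that part from the libraries.

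The tRNA genes with CACGTG near a summit in at least 2 lists are shown with the R64 sequence around the site, capitals marking CACGTG, which reads the same on both strands. The first lies between the alanine gene YNCD0004W and GPD1, a glycerol synthesis gene, and the second next to the leucine gene YNCL0037W.
YNCD0004W site, chrIV:410993-411028, + strand: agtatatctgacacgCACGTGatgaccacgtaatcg
YNCL0037W site, chrXII:732227-732262, + strand: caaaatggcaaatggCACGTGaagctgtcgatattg
At YNCD0004W the fold was 12.2 and 11.6 with Pho4 and 7.82 and 17.9 with Cbf1, with Pho4 summits at 656 and 627 bp, and Cbf1 summits at 687 and 682 bp, from the 5′ end of the gene. The peak covered the tRNA gene, but its summit lay far downstream in all 4 lists, and within 50 bp of the site with Pho4 alone. The site lies at 411008 to 411013, and the summits of Cbf1 replicates 1 and 2, at 411066 and 411061, lay only just past that cut-off. At this gene the difference between the factors, and the counts of 0 with Cbf1 above, thus turn on the cut-off. At YNCL0037W, beyond the end of the Cbf1 replicate 1 list, the fold was 7.71 and 8.30 with Pho4 and 15.5 in Cbf1 replicate 2, with summits at 182, 176 and 150 bp. A lysine gene, YNCP0010W, chosen here after its values were seen, had a CACGTG peak of fold 20.0 in Pho4 replicate 2, the only list to reach it.

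Among genes in all 4 lists, the highest mean fold percentile after YNCD0004W belonged to TGA1, SUP17, YNCD0014C (glutamine), YNCD0020W (glycine) and YNCD0023C. TGA1 had folds of 7.75 and 6.67 with Pho4 and 5.32 and 6.39 with Cbf1, with summits at -21 and 40 bp for Pho4 and at 13 and 42 bp for Cbf1. All 4 summits lay inside the gene or within 50 bp of it, at fold percentiles of 86.6 and 80.1 for Pho4 and of 89.2 and 81.8 for Cbf1. SUP17 had folds of 17.9 and 11.5 with Pho4 and 3.33 and 4.07 with Cbf1. Its Pho4 summits lay at 428 and 432 bp and its Cbf1 summits at 194 and -79 bp, so the Pho4 peaks, at fold percentiles of 96.7 and 91.3, against 77.8 and 71.6 for Cbf1, had their summit away from the gene.

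YNCD0014C had folds of 7.04 and 6.95 with Pho4 and 5.05 and 6.44 with Cbf1, with summits at 34 and 24 bp for Pho4 and at 39 and 123 bp for Cbf1. YNCD0020W, one of 16 identical glycine genes, had folds of 7.09 and 5.13 with Pho4 and 5.46 and 5.36 with Cbf1. YNCD0023C, an intron-bearing gene whose sequence occurs once, had folds of 6.57 and 4.06 with Pho4 and 5.32 and 8.41 with Cbf1. Within the lists, YNCD0014C stood at percentiles of 84.8 and 80.9 for Pho4 and of 88.5 and 81.9 for Cbf1, so the factors overlapped there. The Pho4-minus-Cbf1 difference of mean percentile was -2.38 points at YNCD0014C, -5.72 at YNCD0020W and -16.3 at YNCD0023C.

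Few tRNA genes were called in both lists of one factor and neither list of the other. SUP54, between HEM2 and YGL039W, was the one called in both Pho4 lists and neither Cbf1 list, with folds of 14.5 and 9.71 and summits at 217 and 205 bp, past the gene. SUP56 differs from it by 1 base in 114, T57G (the SUP54 base first, counted from the 5′ end), and had a peak in all 4 lists. SUP56 folds were 3.5 and 2.37 with Pho4 and 3.22 and 3.65 with Cbf1, with summits at 12 and -32 bp for Pho4 and at 18 and 13 bp for Cbf1. The SUP56 summits thus lay inside the gene, apart from that of Pho4 replicate 2, which lay upstream, whereas both SUP54 summits lay past the gene. SUP54 is 1 of 6 identical copies, while the SUP56 sequence occurs once. Another copy of SUP54, SUP53, had a peak in all 4 lists, with summits at 201 and 215 bp for Pho4 and at 204 and 201 bp for Cbf1. Genes identical to SUP54 thus also differed in their calls, and the part of the changed base was not tested.

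On the Cbf1 side, YNCI0011W between PAN1 and EGH1 had the highest folds, 10.5 and 23.5, with summits 298 and 295 bp upstream of the gene. The peak of Cbf1 replicate 2 reached only the first 3 bp of YNCI0011W, the smallest overlap in that list, so this call rests on the edge of the membership rule. YNCE0010W, an arginine gene next to GCN4, which encodes the activator of amino acid synthesis genes, had folds of 3.34 and 4.49 with summits at 450 and 457 bp. SUP61, a serine gene whose sequence occurs once in the genome, had folds of 3.05 and 4.04 with summits at 34 and 50 bp. SUP61 alone among these 3 had its summits inside the gene.

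The largest Pho4-minus-Cbf1 differences of fold percentile among the 36 shared genes are a description, since the genes were picked by that difference. IMT4, an initiator methionine gene, had the largest, 33.3 points, with folds of 4.35 and 3.46 with Pho4 and 1.72 and 2.72 with Cbf1. YNCE0029C (isoleucine) followed with 27.3 points and YNCG0034W, an exact copy of YNCD0004W, with 20.9. At the other end were SUP56 with -36.8 points, SUF2 (proline) with -28.9 and YNCE0028C with -25.6. SUF2 had folds of 3.02 and 3.19 with Pho4 and 3.10 and 4.35 with Cbf1, with summits at -72 and -85 bp for Pho4 and at 21 and 10 bp for Cbf1. At SUF2 the Pho4 summits lay upstream and the Cbf1 summits inside the gene.

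Among tRNA genes beyond the shared sequence with a peak in both Pho4 lists, the highest mean Pho4 fold percentiles after YNCL0037W belonged to YNCL0004C, an exact copy of TGA1, to YNCM0020W (histidine) and to SUF7 (proline). YNCL0004C had folds of 7.26 and 5.42 with Pho4 and 7.14 in Cbf1 replicate 2. YNCM0020W had 7.52 and 5.23 with Pho4 and 5.99 in Cbf1 replicate 2, and SUF7 had 6.91 and 4.65 with Pho4 and 6.80 in Cbf1 replicate 2. All summits at these 3 genes lay between 89 bp upstream and 29 bp downstream of the 5′ end, and the Cbf1 replicate 2 percentile lay between both Pho4 percentiles at YNCL0004C and YNCM0020W and slightly above both at SUF7, at 84.6 and 65.3 for Pho4 and 84.8 for Cbf1.

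Every isotype had at least 1 gene with a peak. Over genes and libraries together, the highest share was 100% for tryptophan, from 1 gene, followed by asparagine with 83.3% over 3 genes and alanine and leucine with 75% over 6 and 9 genes. The lowest was aspartate with 20.8% over 6 genes, followed by tyrosine with 25% over 3. Aspartate genes had a peak in 2 and 0 of 6 cases with Pho4 and in 1 and 2 with Cbf1. Genes of an isotype share sequence, and most isotypes had few genes, so the order is a description. Over the longer sequence that Pho4 replicate 1 and Cbf1 replicate 2 both reach, both ends of the order changed: tryptophan had a mean share of 60% over 5 genes, cysteine the highest with 100% over 2, and tyrosine the lowest with 35.7% over 7, next to aspartate with 42.9% over 14. In the shared sequence, 27 genes had no peak, or 21.4% of all 126. They included 5 of 12 genes for lysine, 4 of 10 for glycine, 3 of 8 for arginine, 3 of 6 for aspartate and 2 of 3 for tyrosine.

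**Figure D5:**
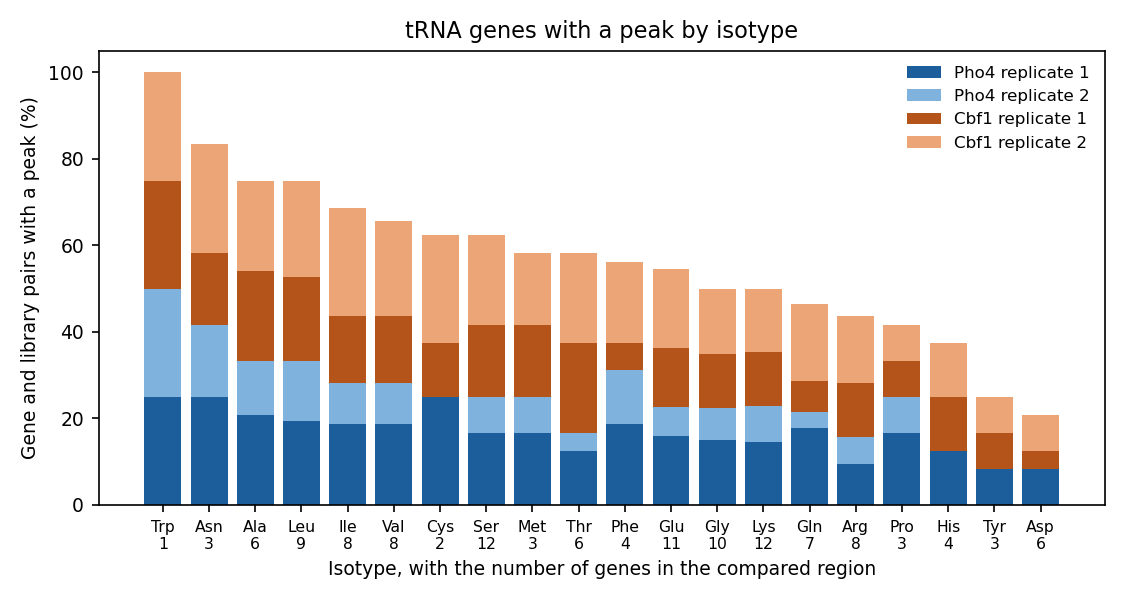
Percent of gene and library pairs with a peak for each isotype, stacked by library, with the number of genes under each name. Tryptophan, with 1 gene, is at 100%, and aspartate, with 6 genes, is the lowest at 20.8%.

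Identical genes were not called alike. Of 11 families with at least 4 exact copies in the shared sequence, which held 70 genes, 7 had a copy with a peak in all 4 lists and another with a peak in none. Over all tRNA genes there, 28.6% had a peak in all 4 lists and 21.4% in none. At such shares a family of several genes can hold both kinds, and whether 7 families exceed that was not tested. The largest lysine family had 9 copies, 3 in all 4 lists and 4 in none. The largest glycine family had 8, with 2 in all 4 lists and 4 in none, and the largest glutamate family had 9, with 2 and 2. Genes of the same sequence thus had different calls in these lists. How the authors' alignment treated reads that match several copies is not given in the sources used here, and its part was not tested.

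Genes with 6 or more identical copies were called least often in each library, and the flanks moved with the calls as well. Genes whose sequence occurs once had a peak in 85.7% and 35.7% of 14 cases with Pho4 and in 64.3% and 78.6% with Cbf1. Genes with 6 or more copies had one in 59.3% and 26.7% of 86 cases with Pho4 and in 50% and 68.6% with Cbf1. The mean difference was 14.9 points, positive in 4 of 4 libraries (exact sign-flip p = 0.13). Genes with 2 to 5 copies had a peak in 69.2% and 42.3% of 26 cases with Pho4 and in 69.2% and 80.8% with Cbf1. These shares lay above those of genes whose sequence occurs once, except in Pho4 replicate 1, so calls did not fall steadily with copy number. The place of the summit differed too. With fewer than 6 copies it lay inside the gene for 56.7% and 25% of Pho4 calls and for 59.3% and 53.1% of Cbf1 calls. With 6 or more copies it did so for 31.4% and 8.70% of Pho4 calls and for 32.6% and 37.3% of Cbf1 calls, a mean difference of 21 points (4 of 4 libraries, exact sign-flip p = 0.13).

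The yeast retrotransposons Ty1 and Ty3 are known to insert upstream of tRNA genes and leave long terminal repeats there. The 77 genes with a long terminal repeat or Ty element within 500 bp had a peak in 70.1% and 35.1% of cases with Pho4 and in 62.3% and 77.9% with Cbf1. The 49 genes without one had a peak in 55.1% and 24.5% of cases with Pho4 and in 44.9% and 63.3% with Cbf1. The mean difference was 14.4 points, positive in 4 of 4 libraries (exact sign-flip p = 0.13). Outside the 500 bp upstream of protein-coding genes, the difference turned round for Pho4, with 62.5% and 25% near an element, against 71.4% and 38.1% without one. Cbf1 kept the direction there, with 56.25% and 75% near an element, against 38.1% and 52.4%. Inside those 500 bp, Pho4 had 82.8% and 51.7% near an element, against 42.9% and 14.3% without one. Cbf1 had 72.4% and 82.8% there, against 50% and 71.4%.

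Introns and promoters moved with the calls less evenly. Intron-bearing genes differed from the others by a mean of -1.19 points (exact sign-flip p = 0.75), genes inside a protein-coding promoter from those outside by 5.51 points (p = 0.25, exact) and genes with an exact B box core from the rest by 0.893 points (p = 0.75, exact). Each of these 3 differences changed sign between libraries. Over the 5 class differences of presence, the smallest Benjamini-Hochberg adjusted p from the exact tests was 0.312.

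Other genes of RNA polymerase III were called as well. SCR1, the RNA of the signal recognition particle, had folds of 10.9 and 10.8 with Pho4 and 6.49 and 9.22 with Cbf1. RPR1, the RNA of RNase P, had 7.37 and 6.55 with Pho4 and 3.24 and 4.50 with Cbf1. SNR52, a small nucleolar RNA that guides rRNA methylation, had 6.32 and 4.68 with Pho4 and 3.64 and 5.62 with Cbf1. These 3 genes lie in the sequence all lists reach, and each had a peak in all 4. By fold percentile within the list, SCR1 stood at 91.9 and 90.3 with Pho4 and at 91.7 and 89.1 with Cbf1, and RPR1 at 86.2 and 78.9 with Pho4 and at 77.2 and 77.4 with Cbf1. SNR52 stood at 82.6 and 65.8 with Pho4 and at 81.0 and 81.6 with Cbf1, so the percentiles of the factors overlapped at SCR1 and SNR52 and not at RPR1. Summit positions differed. From the gene start they lay at 136 and 149 bp with Pho4 and at 360 and 344 bp with Cbf1 at SCR1. At RPR1 they lay at -21 and -31 bp with Pho4 and at 266 and 193 bp with Cbf1. At SNR52 they were closer, at -104 and -105 bp with Pho4 and at -127 and -116 bp with Cbf1.

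On chromosomes XII and XIII, which the Cbf1 replicate 1 list does not reach, calls were mixed. SNR6, the U6 spliceosomal RNA, had a peak of fold 2.21 in Pho4 replicate 1 and 4.36 in Cbf1 replicate 2, and none in Pho4 replicate 2. RNA170 had one of fold 2.27 in Pho4 replicate 1 alone. Of the near-identical 5S rRNA genes, RDN5-2 to RDN5-5 had no peak. RDN5-1 had folds of 16.2 and 14.4 with Pho4 and 17.3 in Cbf1 replicate 2, with summits 524 to 802 bp from the gene start, and RDN5-6 had 13.2 and 12.2 with Pho4 and 3.75 in Cbf1 replicate 2.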

How the data were processed

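Peak lists of 4 ChIP-nexus libraries were analysed, 1 per library. Per the submitters' processing notes, the tools were cutadapt 1.8.1, Bowtie 1.1.2, SAMtools 1.3.1, bedtools and MACS2 2.1.1, and the build was sacCer3, the R64 assembly; settings and thresholds were not found there. The authors' fold column is a ratio of summit height to local background, and genes were compared between lists by its percentile within each list; raw folds are given as deposited. The deposited −log10 p and −log10 q columns served to derive summit heights and to rank peaks. The deposited score column was not used.

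The computations used Python 3.11.15, numpy 2.4.6, scipy 1.17.1 and matplotlib 3.10.9. Coordinates are 1-based. Sequences came from the RefSeq R64 genome of S288C, from which W303 may differ. Where several peaks overlapped a gene, the summit nearest to it was used. Tests were exact permutations over libraries, two-sided except for the similarity of gene sets, which was one-sided. Fold percentiles rank a peak within its list in the shared sequence. For genes beyond the shared sequence and for the other RNA polymerase III genes, they rank it within the whole nuclear list. The steps were tested on simulated data. Mitochondrial peaks were left out of the comparisons.

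Members and lists were chosen with earlier results of these data known. Named genes are the 6 of highest mean fold percentile in all 4 lists, up to 3 per factor called in that factor alone, the 3 at each end of the Pho4-minus-Cbf1 difference, the 4 highest Pho4 genes beyond the shared sequence, those with CACGTG near a summit in at least 2 lists, and a set of other RNA polymerase III genes. Families of identical sequence stand in for anticodons, which the annotation gives for few genes. Alternatives were the upper 50% of each list, equal list lengths, other overlap rules, whole lists, classes of genes left out, CACGTG windows of 25 and 100 bp, replicate blocks and each library left out.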

Additional observations from a re-analysis of the deposited data

Results flagged for a closer look

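The lists also held mitochondrial peaks, which entered no comparison: 21 in Pho4 replicate 1, 20 in Pho4 replicate 2, 13 in Cbf1 replicate 1 and 9 in Cbf1 replicate 2. They covered 1, 0, 2 and 1 of the 24 mitochondrial tRNA genes in the same order of libraries.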

How the results depend on the processing

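Each of 13 results was recomputed under up to 16 settings, and of 172 values 9 changed direction and 12 counts moved by over 1.5 times. Among peaks in the upper 50% by −log10 q, the Pho4-minus-Cbf1 difference was 2.24 for the fold percentile and 0.11 for the log2 fold contrast, and tRNA peaks differed from other peaks by -0.14 in log2 fold and by -68.1 bp in width. There, 16 tRNA genes had a peak in all lists and 19 in both Pho4 lists. With summits required within 100 bp of the gene, the counts were 22 and 25. Without tRNA genes in promoters they were 17 in all lists, 20 in both Pho4 lists and 35 in both Cbf1 lists, and without identical copies 4, 5 and 9, since fewer genes remained by construction; the summit offset then differed by -3.75 bp. Over whole lists, 63 genes had a peak in both Pho4 lists and the similarity contrast was -0.0242, where the lists reach different numbers of genes. With 1 library left out, the similarity contrast ran from -0.104 to 0.316, the difference in the share of tRNA genes from -32.9 to 0.397 points, and the genes in all remaining lists from 36 to 61.

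The replicate numbers share only a number: the deviations of same-numbered libraries correlated at -0.193 over 36 genes. With the replicate number as a block, the difference in the share of tRNA genes was again -16.3 points (exact p = 1). With the Cbf1 numbers crossed, chosen after seeing the data, its p was 0.5, the smallest a block of 2 allows. Neither design can reach p below 0.05, so neither can make or lose a call.

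Precision is limited by 2 libraries per factor, by depth, whose part in the calls was not tested and which was lowest in Pho4 replicate 2 (median summit at tRNA genes 35 reads), and by lists that end before the last chromosome.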
